A study of Mus musculus with 2 samples.

Results

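Crypt epithelial cells carrying transcripts of MHC class II, the antigen-presenting molecules usually found on immune cells, were picked out of single-cell transcriptomes of mouse jejunum. A cell belonged to the group when at least 2 of the 3 genes H2-Aa, H2-Ab1 and H2-Eb1 were detected, together with at least 1 unique molecular identifier (UMI, 1 counted transcript) of the epithelial gene Epcam and no UMI of the immune genes Ptprc, Cd79a or Lyz2. The members were thus chosen by the measured counts of these 7 genes. Cells needed 500 genes or more and no more than 20% mitochondrial UMIs, and 2849 of 22282 such cells met the rule. The cells came from Lgr5-eGFP-IRES-CreER mice, in which the promoter of the stem cell gene Lgr5 drives a green fluorescent reporter and an inducible recombinase, and GFP+ cells had been sorted. All mice carried this allele, were labelled female and were 10 to 12 weeks old. There were 3 mice per condition, Fc control or FZD5/8 antagonist, which blocks a pair of Wnt receptors. Each condition is 1 library, and the labels do not say which mouse a cell came from. The dose and the length of treatment were not found in the labels.

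MHC class II molecules are pairs of an alpha and a beta chain that hold peptides for CD4+ T cells. H2-Aa and H2-Ab1 encode the chains of I-A, and H2-Eb1 the beta chain of I-E. Cd74 encodes the invariant chain that guides them, H2-DMa and H2-DMb1 the chaperone that loads peptide, and Ciita the coactivator of these genes. Intestinal epithelium is known to make class II under interferon gamma. Reg3b and Reg3g are secreted lectins that act on bacteria.

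Promoter stretches are shown for 2 of the genes that define the group and for Reg3g, which was not used to choose the cells, because class II genes share a promoter element. They come from RefSeq (GRCm38.p6), whose table held 6 of 8 genes looked up. H2-Ab1 and Ciita were not matched. The windows of H2-DMa, H2-DMb1 and Reg3b ran into the annotated gene and are not shown. Each shows the 150 bases before the start site, 5′ to 3′ on the gene's strand, and capitals mark CTGATTGG, the Y box, which was searched on both strands.
H2-Aa (chr17:34287824-34287973, minus strand): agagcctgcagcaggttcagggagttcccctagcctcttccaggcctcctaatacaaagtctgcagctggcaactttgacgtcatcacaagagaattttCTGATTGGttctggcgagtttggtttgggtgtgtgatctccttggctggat
H2-Eb1 (chr17:34305717-34305866, plus strand): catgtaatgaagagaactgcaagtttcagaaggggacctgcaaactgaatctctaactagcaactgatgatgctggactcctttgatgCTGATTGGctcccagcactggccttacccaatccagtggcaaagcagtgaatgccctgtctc
Reg3g (chr6:78468875-78469024, minus strand): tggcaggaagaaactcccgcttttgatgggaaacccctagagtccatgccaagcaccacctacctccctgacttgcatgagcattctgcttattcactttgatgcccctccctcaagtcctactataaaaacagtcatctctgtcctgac
The element lay 51 to 44 bases before the start in H2-Aa and 62 to 55 bases before it in H2-Eb1, and these letters were not in the Reg3g window. Nor were these exact letters in the windows of H2-DMa, H2-DMb1 and Reg3b. Of 32851 promoter windows of this length, 1039 (3.16%) hold it.

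The libraries held 11263 control and 11019 antagonist cells after filtering. The control library went against its label on sex. Xist, made from the inactive X chromosome, was at 1.33 CPM (a gene's UMIs scaled to a common total over the cells summed) with the control and 512 CPM with the antagonist, and Y-linked genes at 106 and 5.6 CPM. Both are labelled female. Condition, sex-linked transcripts and library cannot be told apart. The libraries shared 67 barcodes among kept cells. Doublets were not removed. With 1 library per condition there is no test, and each interval is a 95% interval for counting error only.

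Class II positive cells made up 2230 of 11063 Epcam-positive cells in the control library, 20.2% (19.4 to 20.9, exact binomial). With the antagonist they made up 619 of 10764, 5.75% (5.32 to 6.21). The share was therefore lower in the antagonist library by more than counting error. Detection rises with depth, so each cell was also thinned at random to 3000 UMIs and the rule was applied again. Too shallow for this were 3727 cells of the control and 5983 of the antagonist library. The shares were then 833 of 7493 (11.1%, 10.4 to 11.9) and 133 of 5008 (2.66%, 2.23 to 3.14), with the same order of the libraries. Of these 7493 and 5008 cells, 2076 and 553 met the rule at full depth. Full-depth and thinned values therefore compare different sets of cells. Thinned comparison cells can include cells that were class II positive at full depth.

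The transcripts were sparse, with a median of 3 UMIs over the 3 genes per class II positive cell in each library and a highest value of 27 in the control and 15 in the antagonist library. Of the 2230 control cells, 728 (32.6%) had all 3 genes, 525 (23.5%) H2-Aa with H2-Ab1, 557 (25%) H2-Ab1 with H2-Eb1 and 420 (18.8%) H2-Aa with H2-Eb1. Of the 619 antagonist cells, 162 (26.2%) had all 3, 152 (24.6%) H2-Aa with H2-Ab1, 191 (30.9%) H2-Ab1 with H2-Eb1 and 114 (18.4%) H2-Aa with H2-Eb1. No single pair dominated in either library. Just outside the rule, 3195 control and 2009 antagonist Epcam-positive cells had 1 of the 3 genes. A further 28 control and 36 antagonist cells had 2 or 3 genes but also an immune UMI.

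Epcam-positive cells with none of the 3 genes, 5610 in the control and 8100 in the antagonist library, served for comparison. They were shallower. Class II positive cells had a median of 7324 UMIs against 3284 in the control library, and 8636 against 2398 in the antagonist library. With the antagonist, 258 of 619 class II positive cells (41.7%) were among the deepest 5% of all its kept cells, and these held 85.7% of the group's UMIs. The corresponding control values were 284 of 2230 (12.7%) and 30.6%. In those deep antagonist cells the goblet gene Muc2, the enterocyte gene Apoa1, the tuft gene Dclk1 and the Paneth gene Lyz1 were all detected together in 114 of 258, against 7 of 361 other antagonist class II positive cells and none of 284 deep control ones. Of the antagonist comparison cells among the deepest 5%, 14 of 108 (13%) also had all 4. Values summed at full depth over antagonist class II positive cells therefore mostly describe the deep ones. Thinned values, where every cell counts alike, are given beside many of them.

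**Figure D1:**
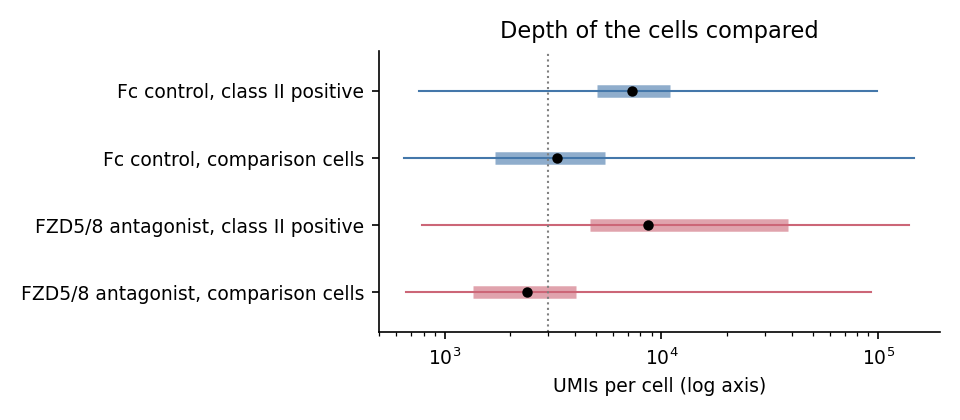
UMIs per cell (log axis) of class II positive and comparison cells in each library. The dot is the median, the thick bar runs from the first to the third quartile, the thin line from the lowest to the highest cell, and the dotted line marks 3000 UMIs. The antagonist class II positive cells reach 38158 UMIs at the third quartile, against 11002 in the control library.

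The 3 genes of the rule lie in the class II region of chromosome 17 (GRCm38), H2-Ab1 at 34257689 to 34269419, H2-Aa at 34282744 to 34287823 and H2-Eb1 at 34305867 to 34316674. In class II positive cells H2-Aa was at 150.4 CPM in the control and 44.3 CPM in the antagonist library, H2-Ab1 at 151 and 64.8 CPM and H2-Eb1 at 143 and 46.8 CPM. Thinned, they were at 326 and 286, 316 and 266, and 299.7 and 271 CPM. Epcam, the adhesion molecule of the rule, was at 2852 and 3036 CPM.

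The comparison of class II positive with comparison cells is a description, since measured values of the same cells chose the group. Cd74 was at 1058 CPM in class II positive and 307 CPM in comparison cells of the control library, 3.45-fold (3.36 to 3.54) higher, and at 344 and 201 CPM in the antagonist library, 1.71-fold (1.64 to 1.77). In thinned cells the ratios were 3.69-fold (3.54 to 3.85) and 3.85-fold (3.44 to 4.3). Cd74 thus went with the class II genes in both libraries, although it was not in the rule, and 54.7% of control comparison cells also had a UMI of it. The peptide loading genes showed the same order in the control library: H2-DMa was at 28 against 12.4 CPM, 2.26-fold (1.96 to 2.61), and H2-DMb1 at 21.5 against 7.31 CPM, 2.93-fold (2.46 to 3.51). With the antagonist, H2-DMa was at 11.2 against 9.92 CPM and H2-DMb1 at 5.79 against 4.25 CPM, with ratios of 1.12-fold (0.916 to 1.38) and 1.36-fold (1.01 to 1.83). Thinned, these rested on 10 and 6 UMIs, with ratios of 2.46-fold (1.15 to 4.67) and 3.57-fold (1.25 to 8.32). Ciita was scarce, with 94 UMIs against 87 in the control library (4.7 and 3.55 CPM) and 11 against 33 in the antagonist library (0.787 and 1.26 CPM), and both ratio intervals included 1. Thinned, Ciita had 17 against 47 UMIs in the control library, 1.98-fold (1.06 to 3.51), and 0 against 17 in the antagonist library. Of 10 class II presentation genes with at least 20 UMIs outside the rule, 3 (Cd74, H2-DMa and H2-DMb1) were 2-fold or more higher and none 2-fold or more lower in the control library, where 0.594% of 12618 genes were higher by that much. None of 10 was in the antagonist library, where 0.611% of 12110 genes were. Thinned, 4 of 10 were higher in the control library, where 1.21% of 11481 genes were, and 4 of 9 in the antagonist library, where 7.26% of 10699 were. The lysosomal protease Ctss, which trims the invariant chain, was at 64.2 against 55.1 CPM in the control and 55.4 against 51.4 CPM in the antagonist library, and thinned its ratios were 1.18-fold (0.992 to 1.4) and 1.61-fold (1.1 to 2.28).

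Both Reg3 genes were higher in class II positive than in comparison cells of each library. In the control library Reg3b was at 2629.6 CPM in class II positive and 623 CPM in comparison cells, 4.22-fold (4.15 to 4.3), and Reg3g at 2735 and 681 CPM, 4.02-fold (3.95 to 4.09). With the antagonist, Reg3b was at 384 and 262 CPM, 1.46-fold (1.41 to 1.52), and Reg3g at 425 and 347 CPM, 1.22-fold (1.18 to 1.26). The antagonist ratios were smaller at full depth but not in thinned cells, where Reg3b was 3.52-fold (3.42 to 3.63) higher in the control and 3.75-fold (3.4 to 4.13) higher in the antagonist library, and Reg3g 3.81-fold (3.7 to 3.92) and 4.3-fold (3.96 to 4.67). Without the deepest 5% of cells, the log2 ratio of the 2 genes summed was 1.95 in the antagonist library, against 0.41 with them. Weighting the comparison cells by depth turned it to -0.18, a value in which the 17 comparison cells of the 3 deepest bins carried most of the weighted UMIs. Among the deepest 5% of antagonist cells, Reg3g was lower in class II positive cells, at 280 against 596 CPM. Reg3b was there at 288 against 272 CPM. In the deepest 5% of control cells both were higher, Reg3b at 3078 against 1318 CPM and Reg3g at 2820 against 1271 CPM. The other lectins differed with depth. Reg1 was at 173 against 136 CPM in the control and 226 against 274 CPM in the antagonist library, and Reg3a at 22.4 against 14.8 and 21.8 against 29.5 CPM. Thinned, Reg1 was below the comparison cells in both libraries, at ratios of 0.808 and 0.399, and Reg3a above them, at 1.38 and 2.39.

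The Reg3 transcripts were unevenly spread over cells. In thinned control cells the mean of Reg3b and Reg3g UMIs per cell was 5.03 with 0 class II genes detected, 8.49 with 1, 17.2 with 2 and 24.6 with 3. In thinned antagonist cells it was 2.08, 3.45, 6.68 and 20.4. The means rose with each further class II gene in both libraries, while the median control class II positive cell had 2 such UMIs and the cell at the 90th percentile 58. Cells with 10 or more, a limit set after the distribution was seen, were 8.85%, 17%, 36.2% and 52.2% of control cells with 0, 1, 2 and 3 genes. The antagonist shares were 4.71%, 7.37%, 15.5% and 41.2%, the last over 17 cells. The class II positive cells were therefore a mixture with regard to Reg3: 38.9% of the control and 18.8% of the antagonist ones passed the limit.

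**Figure D2:**
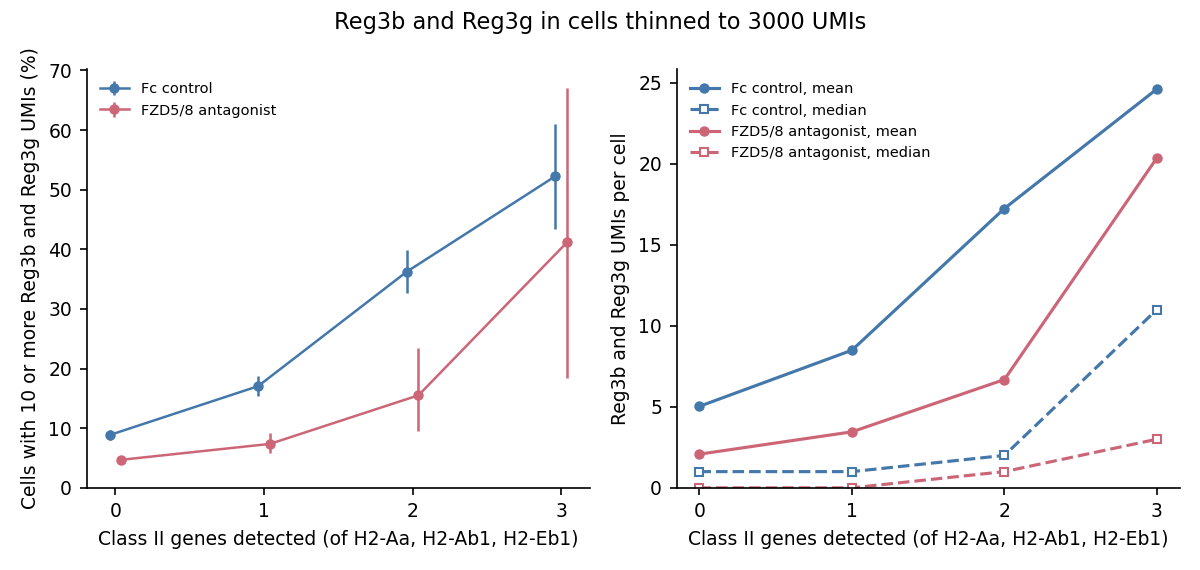
Cells thinned to 3000 UMIs, by the number of class II genes detected (x axis). Left, percent of cells with 10 or more Reg3b and Reg3g UMIs with exact 95% intervals; right, mean (filled) and median (open) UMIs per cell. In the control library the share runs from 8.85% to 52.2%, and the medians stay far below the means.

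Where these cells sit in the crypt was read from marker gates in thinned cells, whose limits were set after the distributions were seen. Most fell outside the enterocyte, goblet, Paneth, tuft and enteroendocrine gates: 789 of 833 control (94.7%) and 122 of 133 antagonist cells (91.7%). So did most comparison cells, 87.4% and 80.7%. A cell outside the gates can still hold transcripts of these types. Fabp2, of the enterocyte gate, was at 1410 CPM in the 105 such antagonist class II positive cells with under 10 Reg3b and Reg3g UMIs. In the matching comparison cells it was at 1862 CPM. Of control cells outside those gates, 789 of 6747 (11.7%, 10.9 to 12.5) were class II positive, and of antagonist cells 122 of 4083 (2.99%, 2.49 to 3.56). Cells of the cycling gate were class II positive in 148 of 1406 (10.5%, 8.97 to 12.2) in the control and 53 of 1614 (3.28%, 2.47 to 4.27) in the antagonist library. In the control library the stem gate gave 137 of 1120 (12.2%, 10.4 to 14.3) and cells with Lgr5 198 of 1355 (14.6%, 12.8 to 16.6). Antagonist cells in these gates numbered only 14 and 39, of which 4 and 2 were class II positive. The secretory types had lower shares: 15 of 303 (4.95%, 2.8 to 8.03) of goblet, 5 of 84 (5.95%, 1.96 to 13.3) of Paneth and 3 of 198 (1.52%, 0.314 to 4.36) of tuft gate cells in the control library. The Paneth interval includes the 11.1% of all control Epcam-positive cells, so its share was not lower beyond counting error. In the antagonist library, 3 of 368 goblet, 0 of 145 Paneth and 0 of 105 tuft gate cells were class II positive. A count of 0 allows shares of up to 2.51% and 3.45%. No enteroendocrine gate cell was class II positive, 0 of 40 and 0 of 19, which allows up to 8.81% and 17.6%. The level in types with few class II positive cells is given for reference. In tuft gate cells the 3 class II genes summed to 53.9 CPM (median 5398 UMIs before thinning) against 212 CPM in all control Epcam-positive cells (median 6097), in enteroendocrine gate cells to 58.3, in goblet to 116 and in Paneth gate cells to 119 CPM. Without thinning the same gates gave 5.56% of tuft and 27.7% of all these control cells as class II positive.

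**Figure D3:**
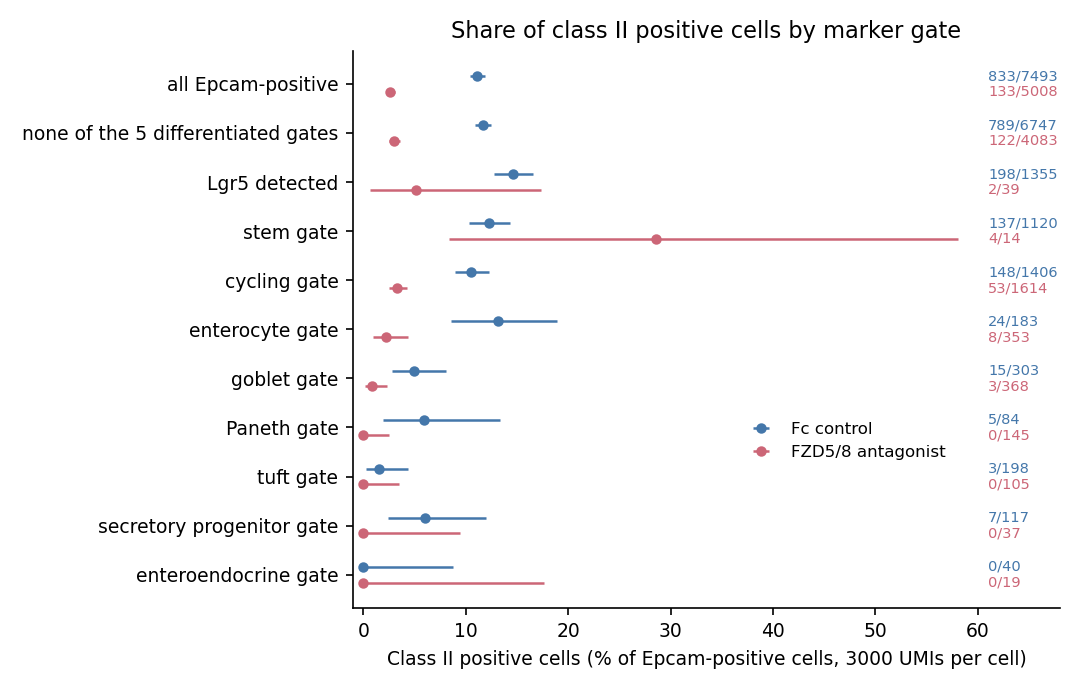
Percent of Epcam-positive cells that were class II positive (x axis, with exact 95% intervals) in each marker gate (y axis), at 3000 UMIs per cell; class II positive and total cells stand at the right. The antagonist share is 2.66% over all cells against 11.1% in the control library, and the widest interval is that of the antagonist stem gate, with 14 cells.

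The stem cell genes were near the level of the comparison cells in the control library at full depth. Lgr5 was at 65.7 against 68.6 CPM, Ascl2, a transcription factor of crypt base stem cells, at 75.8 against 65 CPM and Olfm4, a secreted crypt base glycoprotein, at 2514 against 2259.8 CPM. Thinned, Lgr5 was 1.39-fold (1.19 to 1.6) and Olfm4 1.34-fold (1.31 to 1.37) higher in class II positive cells. None of 28 crypt base genes was 2-fold higher or lower in the control library at either depth, where 3.97% of all genes at full depth and 4.9% thinned were. By any amount, 10 of 28 were higher at full depth and 24 of 28 thinned, beside 4743 of 12618 and 5203 of 11481 genes. The median log2 ratio was -0.11 at full depth and 0.14 thinned, beside -0.084 and -0.031 over all genes, so its sign turned. These genes were scarce in the antagonist library, with Lgr5 at 2.36 against 3.37 CPM and Olfm4 at 389 against 271 CPM. Thinned, Olfm4 was at 777 against 248 CPM, 3.13-fold (2.77 to 3.52), while Lgr5 rested on 3 UMIs. Thinned, 8 of 26 crypt base genes were 2-fold or more higher in antagonist class II positive cells, beside the same 7.26% of all genes, and none was 2-fold lower.

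Enteroendocrine, tuft and Paneth genes were lower in class II positive cells of the control library. All 25 enteroendocrine, 25 of 26 tuft and 19 of 20 Paneth genes were 2-fold or more lower, with median log2 ratios of -4.19, -3.39 and -1.73, where 3.38% of all genes were lower by that much. Chga, an enteroendocrine granule protein, was at 1.4 against 37.6 CPM, and Dclk1, a tuft cell kinase, at 5.2 against 53.1 CPM. Lyz1, Paneth cell lysozyme, was at 299 against 1008 CPM. Thinned, the control counts were 24 of 24 enteroendocrine, 25 of 26 tuft and 2 of 20 Paneth genes, where 3.68% of all genes were lower. In the antagonist library the counts were 12 of 24, 16 of 26 and 0 of 20, where 1.62% of all genes were lower; thinned they were 6 of 14, 17 of 22 and 17 of 20, where 6.77% were. Lyz1 was there at 741 against 565 CPM at full depth and 85.2 against 319 CPM thinned, so its direction differed between the full-depth and the thinned sets of cells. Chga was at 7.72 against 20.6 CPM there, and thinned rested on 7 UMIs. When cells of the 5 differentiated gates were left out after thinning, the control medians of the Paneth and tuft genes turned to 0.10 and 0.29. Goblet genes differed with depth: none of 20 was 2-fold lower at full depth in either library, with medians of -0.17 and 0.010, while 9 of 20 in the control and 13 of 20 in the antagonist library were lower thinned. Muc2, the main goblet mucin, was at 77.8 against 105 CPM in the control library and 165 against 147 CPM in the antagonist library, where thinning turned it to 35.1 against 153 CPM.

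**Figure D4:**
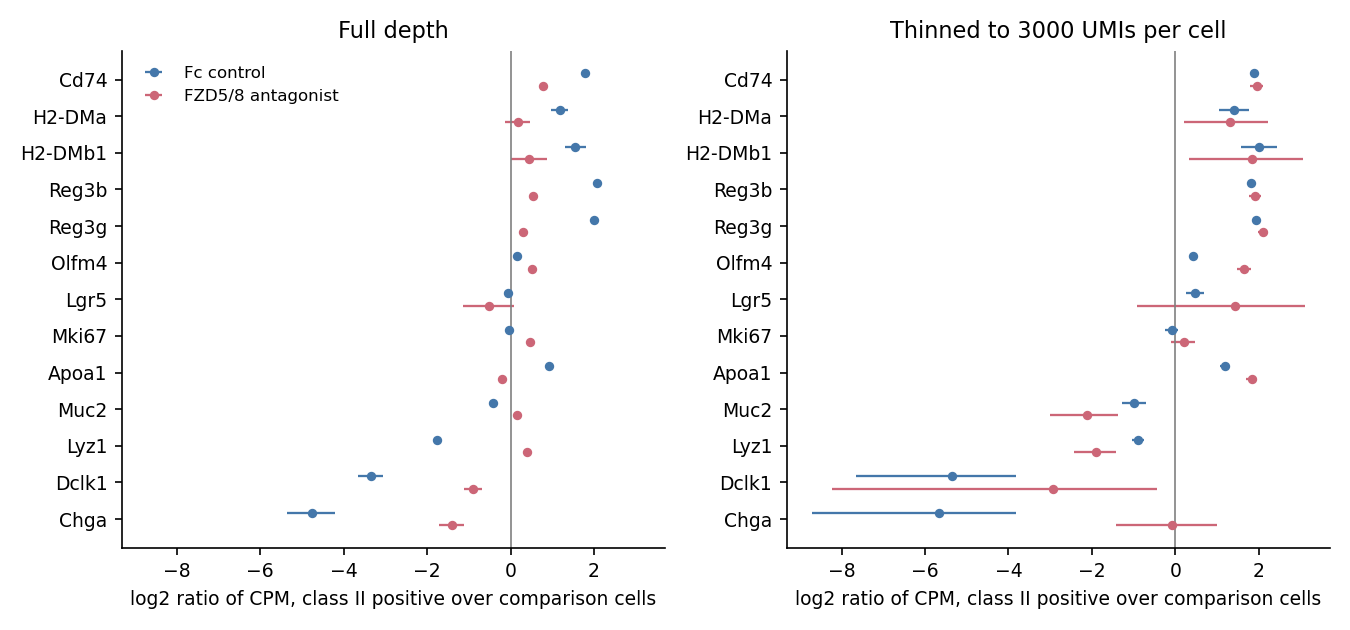
Log2 ratio of CPM, class II positive over comparison cells (x axis), for named genes (y axis) with exact 95% intervals of counting error, at full depth (left) and thinned (right). At full depth Lyz1, Muc2 and Apoa1 lie on opposite sides of 0 in the 2 libraries; thinned, each lies on the same side in both, and Cd74, Reg3b and Reg3g are above 0 in all 4 cases.

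Absorptive genes showed another pattern. Apoa1, a lipoprotein of enterocytes, was at 325 against 170.5 CPM in the control library and 343 against 396 CPM in the antagonist library, and thinned at 424 against 187 and 1411 against 399 CPM. The 36 enterocyte genes had a median log2 ratio of 0.41 in the control and -0.31 in the antagonist library at full depth, and 0.42 and 0.62 thinned. Few cells carried this: 24 control and 8 antagonist class II positive cells were in the enterocyte gate, of 183 and 353 Epcam-positive cells there. The gate held 2.88% and 6.02% of class II positive cells, against 2.61% and 7.16% of comparison cells. There Apoa1 was at 14472 CPM against 6706 CPM in the 119 comparison cells of that gate in the control library, and at 22500 against 4664 CPM in the antagonist library, with 283 comparison cells. B2m, the light chain of MHC class I, was at 2667 against 1336 and 3750 against 1263 CPM in the same cells. In that gate Reg3b went the other way in the control library, at 9083 against 12644 CPM. Without the differentiated gates, the control ratio of Reg3b and Reg3g summed was 2.41 on the log2 scale. Thinned Apoa1 was there at 7.18 against 12.9 CPM in the control and 60.1 against 64.9 CPM in the antagonist library. These values rested on 17 and 22 UMIs in class II positive cells. The thinned excess of Apoa1 was therefore not seen outside the gates, although Apoa1 is itself a marker of the enterocyte gate.

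Interferon gamma response genes were mostly higher by a small amount in class II positive cells. At full depth 20 of 29 were higher by any amount in the control and 18 of 25 in the antagonist library. Over all genes, 4743 of 12618 and 5558 of 12110 were. Of 29 interferon gamma response genes in the control library, 2 were 2-fold or more higher and none lower, beside 0.594% of all genes higher, with a median log2 ratio of 0.087. With the antagonist 1 of 25 was higher, beside 0.611%, with a median of 0.076. Thinned, 1 of 25 and 2 of 21 were 2-fold or more higher, beside 1.21% and 7.26%. By any amount 20 of 25 and 17 of 21 were higher thinned, beside 5203 of 11481 and 6201 of 10699 genes. The thinned medians were 0.17 and 0.18, beside -0.031 and 0.084 over all genes. The chemokine Cxcl9 was higher in both, with 24 UMIs against 3 in the control and 35 against 8 in the antagonist library, and was named after its values were seen. Thinned, Cxcl9 had 4 against 4 and 0 against 3 UMIs. The transcription factor Irf1 was at 67.2 against 70.1 CPM in control class II positive and comparison cells. The proteasome subunit Psmb8, which cuts peptides for class I, was 1.44-fold (1.39 to 1.5) and 1.33-fold (1.28 to 1.39) higher at full depth and 1.26-fold (1.16 to 1.37) and 1.12-fold (0.916 to 1.36) thinned. At full depth none of 23 class I presentation genes was 2-fold higher or lower in either library, beside 3.97% and 2.23% of all genes. Thinned, 1 of 23 was lower in the control library, and 2 of 21 were higher and 1 lower in the antagonist library, beside 4.9% and 14.0% of all genes in either direction. By any amount 20 of 23 and 16 of 21 class I genes were higher thinned, with medians of 0.23 and 0.17. At full depth 15 of 23 and 11 of 23 were. Cyba, a subunit of NADPH oxidases, was 1.67-fold (1.59 to 1.75) and 1.31-fold (1.23 to 1.39) higher at full depth and 1.76-fold (1.6 to 1.92) and 1.86-fold (1.47 to 2.33) thinned. Of 18 antimicrobial and host defence genes in the control library, 5 were 2-fold or more higher and 4 lower, beside 0.594% and 3.38% of all genes, the higher ones including Duox2 (95 UMIs against 42) and Duoxa2 (105 against 48), the dual oxidase and its maturation factor, also named after their values were seen. Thinned, none of 14 was higher and 2 were lower in the control library. In the antagonist library 2 of 17 were higher and none lower at full depth, and 2 of 12 were higher and 2 lower thinned.

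The genes highest by the naming rule in both libraries were, beside Cd74, Reg3b, Psmb8 and Cyba, Lgals9, a galectin, at full-depth ratios of 1.33 and 1.32, Mecr, an enzyme of mitochondrial fatty acid synthesis, at 1.32 and 1.56, and the chromatin and division genes Hist1h2ae, Hist1h1b, Hat1, Ube2c, H2afx and Stmn1. Thinned, the antagonist ratios of Lgals9 and Mecr were 1.01-fold (0.823 to 1.23) and 0.996-fold (0.576 to 1.61). The lowest were the enteroendocrine genes Chgb and Sct, the tuft genes Alox5ap, Rgs13 and Dclk1, the Paneth defensins Defa30, Defa34 and AY761184, and Kctd12, Reep5, Cd24a and Cdhr5. Some of these directions turned under other settings. In control cells Dclk1, Rgs13, Defa30, Defa34 and AY761184 were higher once differentiated gates were left out after thinning.

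Cell cycle genes did not set these cells apart by the size rule. None of 38 S phase and 52 G2 and M phase genes was 2-fold higher or lower at full depth in either library, where 3.97% and 2.23% of all genes were. By any amount, 33 of 38 S phase genes were higher in the control and 27 in the antagonist library. Their median log2 ratios were 0.23 and 0.11. Of 52 G2 and M phase genes, 39 and 42 were higher, with medians of 0.13 and 0.16, beside -0.084 and -0.030 over all genes. Thinned, 22 and 32 S phase genes were higher, with medians of 0.040 and 0.29. Thinned G2 and M phase genes gave 12 and 34, with medians of -0.095 and 0.090, beside -0.031 and 0.084 over all genes. Mki67, a marker of cycling cells, was at 189 against 193 CPM in the control and 303 against 219 CPM in the antagonist library, where the thinned ratio was 1.15-fold (0.93 to 1.4). The histone gene Hist1h2ae was 1.62-fold (1.54 to 1.71) and 2.81-fold (2.67 to 2.96) higher at full depth, and its control ratio was 0.95 thinned.

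Immune cell lists were compared with the 5524 control and 8018 antagonist comparison cells that also had no UMI of Ptprc, Cd79a or Lyz2, since the rule sets these genes to 0 in class II positive cells. Of 22 T and innate lymphoid genes, 17 had no UMI in control class II positive cells, among them the T cell receptor genes Cd3e, Cd3g and Trac. The list summed to 20 UMIs (1.0 CPM) there against 79 (3.31 CPM). Of the 22, 11 had none in antagonist class II positive cells, while Cd3e, Cd3g and Trac had 1, 5 and 2 UMIs, and the list summed to 66 UMIs (4.72 CPM) against 125 (4.86 CPM). The B and plasma cell list, mostly Cd79b, summed to 3.9 against 2.64 CPM in the control and 4.0 against 3.5 CPM in the antagonist library. The pan-leukocyte list, mostly Lcp1 and Rac2, summed to 23.1 against 32.5 and 12 against 15.5 CPM. A UMI of it was found in 17.3% of control and 21.2% of antagonist class II positive cells, against 10.2% and 3.7% of these shallower comparison cells. In thinned cells, with 4503 and 3925 such comparison cells, the shares were 6.96% against 8.33% and 4.51% against 2.9%. The control order of the shares thus turned. The thinned list summed to 25.6 against 36.8 CPM and 15 against 12.3 CPM, the antagonist value on 6 UMIs in class II positive cells. The macrophage and dendritic cell list summed to 374 against 343 CPM in the control and 333 against 376 CPM in the antagonist library, and 13 of its 22 genes had a UMI in class II positive cells of each. Of its UMIs in these cells, 6995 of 7482 and 4499 of 4655 were Cst3, a protease inhibitor made by many cell types, and Cd14 had 354 and 82. Thinned, this list summed to 412 against 376 CPM in the control and 449 against 393 CPM in the antagonist library. The antagonist order thus turned, again mostly on Cst3. The thinned B and plasma cell list was at 3.6 against 2.66 CPM and 7.52 against 3.06 CPM, on 9 and 3 UMIs in class II positive cells. The thinned T and innate lymphoid list rested on 6 and 1 UMIs there. The part of immune cells, doublets and free RNA in the class II signal was not tested.

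Within the group, cells with and without many Reg3 UMIs were set side by side, leaving out the differentiated gates. Of 789 such control cells, 298 had 10 or more Reg3b and Reg3g UMIs and 491 fewer. Cd74 was at 2287 CPM in the first and 964 CPM in the second, and Gpx2, a glutathione peroxidase of crypt epithelium, at 2469 and 1151 CPM. Pglyrp1, a peptidoglycan recognition protein, was at 647 and 340.1 CPM. Gkn3, a marker of crypt base cells, was lower in the first, at 109.6 against 281 CPM, while Lgr5 was at 91.7 and 97.8 CPM and Olfm4 at 3549 and 3263 CPM. Comparison cells split the same way gave Cd74 at 1033 and 373 CPM, Gpx2 at 2074 and 1003 CPM and Pglyrp1 at 586 and 268 CPM. Gkn3 was lower with more Reg3 there too, at 94 against 189 CPM, as was Lgr5, at 39.1 against 75.3 CPM. The stem gate held 12.8% and 20% of class II positive and 7.69% and 16.5% of comparison cells in the same split. The higher Cd74, Gpx2 and Pglyrp1 levels therefore went with Reg3 in cells with and without class II genes. Only 17 antagonist class II positive cells outside the differentiated gates had 10 or more Reg3 UMIs, with Cd74 at 902 CPM against 768 CPM in the other 105. Gpx2 and Pglyrp1 were picked after their values were seen.

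Between the libraries, crypt base genes of class II positive cells were lower in the antagonist library. Relative to the control library, 23 of 28 crypt base genes were 2-fold or more lower in antagonist class II positive cells, with a median log2 ratio of -1.99, where 6.61% of 12019 genes were lower, 3.0% higher and 9.61% either by that much. Thinned, 22 of 27 were lower, where 10.2% of 8648 genes were. Lgr5 was at 2.36 against 65.7 CPM and Olfm4 at 389 against 2514 CPM, ratios of 0.0359 and 0.155, beside 0.0491 and 0.12 in the comparison cells. Thinned, the ratios were 0.0817 (0.0167 to 0.242) and 0.241 in class II positive cells, beside 0.0419 and 0.103, so for Lgr5 the order turned, on 3 antagonist UMIs. Cd74 was 0.325 times the control level (0.315 to 0.335) at full depth and 0.612 times (0.547 to 0.682) thinned, and in the comparison cells 0.656 and 0.586 times. Reg3b was 0.146 times the control level and Reg3g 0.155 times at full depth, and 0.401 and 0.507 times thinned, beside 0.376 and 0.449 times in thinned comparison cells. The genes lowest by the naming rule also included Rgcc, Agr3, Ascl2, Lbh, Gkn3 and Sorbs2, at ratios of 0.0837 to 0.146. Thinned, they were at 0.0548 (Lbh) to 0.394 (Agr3), each on 12 antagonist UMIs or fewer. Among those highest were Arg2, an arginase of mitochondria, at 242 against 49.7 CPM, Car4, a carbonic anhydrase, at 101 against 23.4 CPM and Rbp7, a retinol binding protein, at 102 against 22.3 CPM. Each of these 3 was also higher in antagonist comparison cells, by 4.12, 4.51 and 5.32 times. Thinned, Car4 rested on 23 and 8 UMIs in class II positive cells of the antagonist and control libraries. Dmbt1, a secreted scavenger receptor, was at 2873 against 1018 CPM in class II positive cells, 2.82 times, and 3.95 times as high in the comparison cells. Thinned, these were 4.89 and 3.81 times, so the order of the cell groups turned. Top2a, a topoisomerase of dividing cells, was at 438 against 343 CPM. These values compare 2 libraries, not the conditions.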

How the data were processed

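The authors deposited UMI counts per gene and barcode, 1 matrix per library, made with Cell Ranger (software version 3.1.0) against GRCm38 (mm10), per the file headers and the submitters' processing notes. How barcodes were called was not found in the labels. The libraries held 12672 and 13085 barcodes and 67411637 and 55810293 UMIs (control and antagonist). UMIs were summed over class II positive and over comparison cells and divided by each group's total for CPM. Log2 ratios had 0.5 added to each sum. Exact 95% intervals are Poisson for CPM, conditional binomial for ratios and Clopper-Pearson for shares, and they treat UMIs as independent. A call is a 2-fold difference in a gene with at least 20 UMIs over both cell groups. Tools were Python 3.11.15, numpy 2.4.6, scipy 1.17.1, pandas 2.3.3 and matplotlib 3.10.9, and scripts were tested on simulated data.

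Gates used at least 5 of 7 genes (enterocyte, stem), 3 of 7 (tuft, enteroendocrine), 3 of 5 (cycling), 2 of 3 (secretory progenitor), or 1% (goblet) or 10% (Paneth) of UMIs from their markers; one cell can pass several. The class II positive cells, the gene lists and the fixed list of named genes were chosen with earlier results of these data known. Named beside that list were the 12 highest and 12 lowest genes in both libraries and the 8 highest and 8 lowest between libraries, at 50 CPM or more, and from a list its 2 highest and 2 lowest at 20 CPM or more. Xist, Akr1c19, Clca1, Coro2a and Defa21 were also among the highest between libraries. Doublets were not removed and free RNA was not subtracted. Alternatives in the cell filters, the rule, depth, weighting, scaling and the limit on low counts were tried.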

Additional observations from a re-analysis of the deposited data

Results flagged for a closer look

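In 5 genes the class II positive cells stood on opposite sides of the comparison cells in the 2 libraries at full depth. With 1 library per condition the difference between the libraries was not tested. The log2 ratio of class II positive over comparison cells was -0.28 in the antagonist and 0.35 in the control library for Reg1, a lectin of the Reg family, and -0.44 and 0.60 for Reg3a, another. It was 0.17 and -0.43 for the goblet mucin Muc2, 0.39 and -1.75 for the Paneth lysozyme Lyz1, and -0.21 and 0.93 for the enterocyte lipoprotein Apoa1. In cells thinned to 3000 UMIs each of the 5 lay on the same side in both libraries, with ratios, antagonist and control, of 0.399 and 0.808 for Reg1, 2.39 and 1.38 for Reg3a, 0.229 and 0.506 for Muc2, 0.267 and 0.536 for Lyz1, and 3.54 and 2.26 for Apoa1.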

How the results depend on the processing

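No paired analysis was possible because each condition is 1 library, and for the same reason no library could be left out. Cd74 was higher in class II positive cells of both libraries under all 20 alternatives, with log2 ratios of 1.58 to 2.32 in the control and 0.63 to 2.27 in the antagonist library, and Reg3b and Reg3g summed were higher in the control library under all of them, at 1.51 to 2.58. In the antagonist library the Reg3 sum depended on the cells' depth: it was 0.41 at full depth and -0.18 when comparison cells were weighted by depth. Of 200 alternative values of the shares, counts, Reg3 sum and Cd74, 90 stayed within counting error or, for counts, within 1.5 times, and 110 moved. The other random draws, the removal of gated cells and the weightings without bins of under 20 comparison cells were chosen after seeing the data. The cause of the changes was not tested, apart from the weighting by depth, where 17 comparison cells filled the 3 deepest bins. That weighting moved the antagonist median over all genes to a log2 ratio of 1.54, so the antagonist values under it, the Cd74 value of 2.27 included, are to be read against 1.54.

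With at least 1000 genes per cell, the share of class II positive cells was 23.8% (control) and 8.42% (antagonist), the log2 ratio of Reg3b and Reg3g summed was 0.35 (antagonist) and the log2 ratio of Cd74 was 1.89 (control). With at most 10% mitochondrial UMIs, the share of class II positive cells was 22.5% (control) and the log2 ratio of Cd74 was 1.9 (control). With all 3 class II genes required, the share of class II positive cells was 6.58% (control) and 1.5% (antagonist) and the log2 ratio of Reg3b and Reg3g summed was 2.5 (control) and 0.34 (antagonist), while the log2 ratio of Cd74 was 2.2 (control) and the count of genes 2-fold higher was 115 (antagonist). With at least 5 class II UMIs, the share of class II positive cells was 5.59% (control) and 1.3% (antagonist) and the log2 ratio of Reg3b and Reg3g summed was 2.58 (control) and 0.044 (antagonist), while the log2 ratio of Cd74 was 2.32 (control) and 0.63 (antagonist) and the count of genes 2-fold higher was 126 (control). Without the immune exclusion, the log2 ratio of Reg3b and Reg3g summed was 2.06 (control) and 0.36 (antagonist). With a stricter immune exclusion, the share of class II positive cells was 16.7% (control) and 4.5% (antagonist), the log2 ratio of Reg3b and Reg3g summed was 0.65 (antagonist) and the log2 ratio of Cd74 was 0.93 (antagonist). Without the deepest 5% of cells, the share of class II positive cells was 18.5% (control) and 3.53% (antagonist), the log2 ratio of Reg3b and Reg3g summed was 2.17 (control) and 1.95 (antagonist) and the log2 ratio of Cd74 was 1.84 (control) and 1.8 (antagonist), while the count of genes 2-fold higher was 222 (antagonist) and the count of genes 2-fold lower was 527 (antagonist). With each cell weighted alike, the log2 ratio of Reg3b and Reg3g summed was 2.28 (control) and 1.59 (antagonist) and the log2 ratio of Cd74 was 1.58 (control) and 1.37 (antagonist), while the count of genes 2-fold higher was 129 (control) and 174 (antagonist) and the count of genes 2-fold lower was 692 (control) and 647 (antagonist). Centred on the median gene, the log2 ratio of Reg3b and Reg3g summed was 2.13 (control) and the log2 ratio of Cd74 was 1.87 (control). At 100 UMIs or more per gene, the count of genes 2-fold higher was 21 (control) and 27 (antagonist) and the count of genes 2-fold lower was 158 (control) and 54 (antagonist). At 5 UMIs or more per gene, the count of genes 2-fold higher was 238 (control) and 325 (antagonist) and the count of genes 2-fold lower was 966 (control) and 536 (antagonist). Thinned to 3000 UMIs, the share of class II positive cells was 11.1% (control) and 2.66% (antagonist), the log2 ratio of Reg3b and Reg3g summed was 1.87 (control) and 2.02 (antagonist) and the log2 ratio of Cd74 was 1.88 (control) and 1.95 (antagonist), while the count of genes 2-fold higher was 139 (control) and 777 (antagonist) and the count of genes 2-fold lower was 724 (antagonist). With a different random draw, the share of class II positive cells was 10.8% (control) and 2.72% (antagonist), the log2 ratio of Reg3b and Reg3g summed was 2.08 (control) and 1.76 (antagonist) and the log2 ratio of Cd74 was 2.02 (control) and 1.78 (antagonist), while the count of genes 2-fold higher was 147 (control) and 816 (antagonist) and the count of genes 2-fold lower was 713 (antagonist). With another random draw, the share of class II positive cells was 11.3% (control) and 3.16% (antagonist), the log2 ratio of Reg3b and Reg3g summed was 2.0 (control) and 1.81 (antagonist) and the log2 ratio of Cd74 was 1.89 (control) and 1.77 (antagonist), while the count of genes 2-fold higher was 148 (control) and 607 (antagonist) and the count of genes 2-fold lower was 687 (antagonist). Thinned without the differentiated gates, the log2 ratio of Reg3b and Reg3g summed was 2.41 (control) and 2.33 (antagonist) and the log2 ratio of Cd74 was 1.69 (antagonist), while the count of genes 2-fold higher was 624 (antagonist) and the count of genes 2-fold lower was 225 (control) and 676 (antagonist). With comparison cells weighted by depth, the log2 ratio of Reg3b and Reg3g summed was 1.51 (control) and -0.18 (antagonist), the log2 ratio of Cd74 was 2.17 (control) and 2.27 (antagonist) and the count of genes 2-fold higher was 222 (control) and 10577 (antagonist). Weighted by depth, Olfm4 and Mki67, the log2 ratio of Reg3b and Reg3g summed was 1.94 (control) and the log2 ratio of Cd74 was 2.07 (control) and 0.68 (antagonist), while the count of genes 2-fold higher was 230 (control) and 1109 (antagonist) and the count of genes 2-fold lower was 510 (antagonist). Here the deepest antagonist bins, of 62 class II positive cells each, had 0 comparison cells, so these cells were summed without a match. Another bin of 62 rested on 7 comparison cells, which carried 39.6% of the weighted UMIs. Weighted by depth without thin bins, the log2 ratio of Reg3b and Reg3g summed was 1.51 (control) and 1.03 (antagonist) and the log2 ratio of Cd74 was 2.17 (control) and 1.54 (antagonist), while the count of genes 2-fold higher was 222 (control) and 493 (antagonist) and the count of genes 2-fold lower was 557 (antagonist). Weighted by all 3 without thin bins, the log2 ratio of Reg3b and Reg3g summed was 1.94 (control) and 1.19 (antagonist) and the log2 ratio of Cd74 was 2.05 (control) and 1.31 (antagonist), while the count of genes 2-fold higher was 222 (control) and 535 (antagonist) and the count of genes 2-fold lower was 504 (antagonist).

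Of 3289 alternative log2 values, 532 differed in sign from the reported value, 207 of them where the reported interval excluded equal levels and 34 where the reported value was 2-fold or more, a limit chosen after the values were seen. Antagonist values under the plain weighting by depth lie beside an all-gene median of 1.54, and of these only Chgb and the enteroendocrine median exceed it by over 0.1. Those 34, all lower at full depth and higher here, were as follows. Under the stricter immune exclusion the antagonist values were 0.057 for Rgs13. Under thinning the antagonist values were 0.015 for Chga. Under weighting by depth the control values were 0.065 for T and innate lymphoid cell genes (median). Under weighting by depth the antagonist values were 1.54 for Chga, 2.27 for Chgb, 1.03 for Alox5ap, 1.26 for Rgs13, 1.42 for Kctd12, 1.75 for Enteroendocrine cell genes (median), 1.52 for Tuft cell genes (median). Under weighting by depth, Olfm4 and Mki67 the control values were 0.22 for T and innate lymphoid cell genes (median). Under weighting by depth, Olfm4 and Mki67 the antagonist values were 0.29 for Chga, 1.47 for Chgb, 0.00253 for Kctd12, 0.50 for Enteroendocrine cell genes (median). Under another random draw the antagonist values were 1.04 for Chga, 0.10 for Chgb. Under thinning without the differentiated gates the control values were 0.26 for Dclk1, 1.03 for Rgs13, 0.15 for Defa30, 0.24 for Defa34, 0.11 for AY761184, 0.27 for Defa21, 0.10 for Paneth cell genes (median), 0.29 for Tuft cell genes (median). Under thinning without the differentiated gates the antagonist values were 0.019 for Chga, 1.88 for Chgb, 0.62 for Kctd12, 0.51 for Enteroendocrine cell genes (median). Under weighting by depth without thin bins the control values were 0.065 for T and innate lymphoid cell genes (median). Under weighting by depth without thin bins the antagonist values were 0.81 for Chga. Under weighting by all 3 without thin bins the control values were 0.22 for T and innate lymphoid cell genes (median). Under weighting by all 3 without thin bins the antagonist values were 1.04 for Chga, 0.12 for Chgb.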

Other observations

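Further gene lists were compared between class II positive and comparison cells at full depth, where 0.594% (control) and 0.611% (antagonist) of all genes were 2-fold or more higher and 3.38% and 1.62% lower. None of 28 type I interferon response genes was higher in either library, and 1 was lower in the control library, with median log2 ratios of -0.019 and 0.059. Thinned, 2 of 28 were lower in the control library, and 1 was higher and 4 lower in the antagonist library, with medians of -0.0022 and 0.19. None of 9 IL-22 and STAT3 response genes was higher in either library and 1 was lower in the control library, with medians of -0.12 and -0.040. Thinned, none of 8 and none of 7 were higher and 1 was lower in the control library. Both thinned medians were above 0, at 0.18 and 0.043. Of 11 co-stimulatory and checkpoint ligand genes in the control library, 1 was higher and none lower, and none of 9 passed in the antagonist library, where 2 of 8 were higher thinned, beside 7.26% of all genes. Of secretory progenitor genes, 4 of 11 were lower in the control and 1 of 10 in the antagonist library. Over all genes the medians were -0.084 and -0.030 at full depth, and -0.031 and 0.084 thinned.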
